A study of Homo sapiens with 18 samples.

Results

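The genes of the replicative helicase, MCM2 to MCM7, were examined for RNA contacts of MYC, a transcription factor that drives cell growth and division. The members were the 6 genes with these symbols among 20050 protein-coding genes of the RefSeq table, and their peaks were all deposited peaks that shared at least 1 bp with the annotated gene span on hg38. By this rule 12 peaks were found, 0 of 103 in the MYC-3A list, 1 of 88 in the MYC-7A list and 11 of 2149 in the wild-type list. The peaks come from eCLIP (enhanced crosslinking and immunoprecipitation), which joins a protein to the RNA it touches by ultraviolet light and then precipitates the protein and sequences the attached RNA. U2OS, an established human osteosarcoma line, was used after its own MYC had been knocked out. A FLAG-tagged MYC, either the mutant 3A, the mutant 7A or the wild-type protein, was switched on by a Tet-On system with 1 µg/mL doxycycline for 24 h. Each of these groups had 2 immunoprecipitated libraries and contributed 1 peak list. The labels do not say which residues 3A and 7A change, nor whether the cells of an allele were 1 clone. Libraries of cells without doxycycline and input libraries were not analysed here, and no value from uninduced cells can be set beside those given. The MYC gene itself held 2 peaks in each of the 3A, 7A and wild-type lists, and reads there can come from the transgene. With 1 list per allele there is no replicate spread for any value below, no test across samples could be made, and the sequencing depth is unknown.

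The MCM2 to MCM7 proteins form a ring that is loaded around DNA at replication origins in the first gap phase of the cell cycle. Together with CDC45 and the GINS complex the ring then unwinds DNA ahead of the replication fork. Cells that start to divide raise the messages of all its subunits together, under control of E2F factors, and several of the genes are known targets of MYC at the level of DNA. The values here concern contacts of MYC with RNA, and the amount of each RNA in the cells was not measured in these files.

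In the 3A list 0 of the 6 MCM genes held a peak, beside 0.359% of all protein-coding genes. In the 7A list 1 of the 6 held one, MCM5, beside 0.269%. In the wild-type list 5 of the 6 (83.3%) held one, all but MCM5, beside 6.78% of all protein-coding genes. Among the 9199 protein-coding genes whose span lies within the range of the MCM genes (8670 to 54892 bp), 0.283% had a 3A peak, 0.207% a 7A peak and 7.47% a wild-type peak. MCM3 held 4 wild-type peaks, MCM7 held 3, MCM4 held 2, and MCM2 and MCM6 held 1 each. At least 3 wild-type peaks were found in 0.823% of protein-coding genes and at least 4 in 0.379%. All 12 peaks lay on the same strand as the gene's RNA or, for MCM4 and MCM5, on the plus strand, which was taken as that of the gene.

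**Figure D1:**
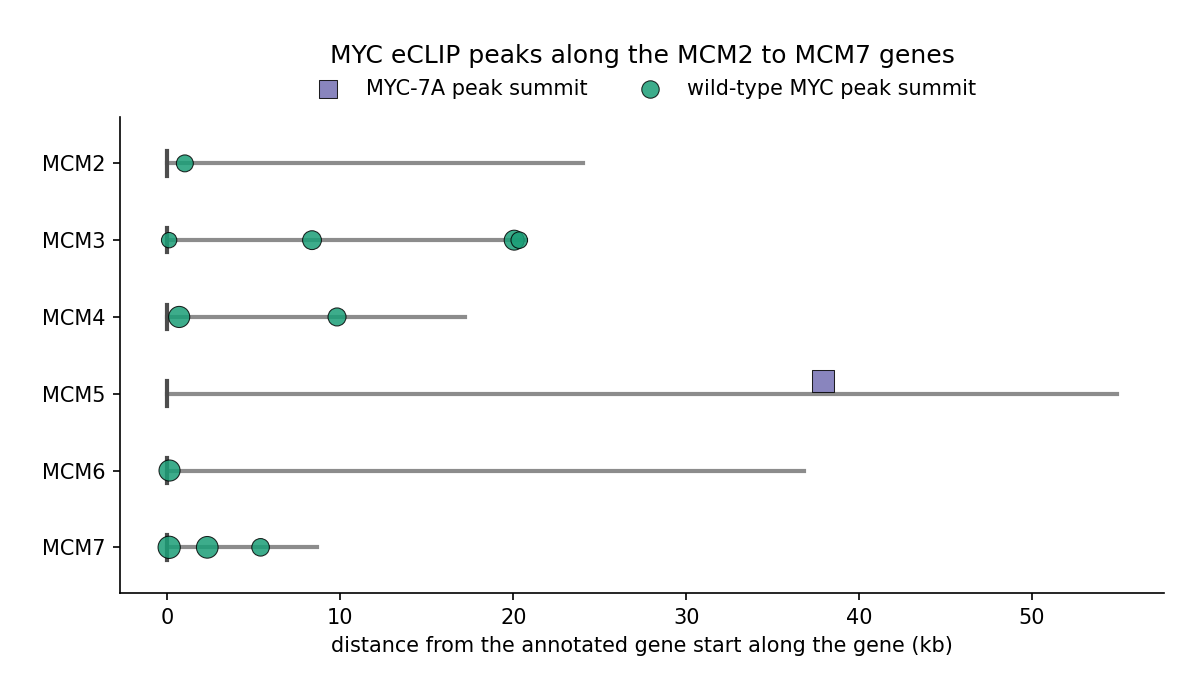
Summits of the 12 peaks along the 6 MCM genes, as distance from the annotated gene start (kb), with grey lines for the gene spans and symbol areas that grow with the fold enrichment within each list. The only MYC-7A summit lies 37.92 kb into MCM5, where wild-type MYC has no peak, and wild-type summits are found in the other 5 genes; MYC-3A has none.

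MCM4, MCM6 and MCM7 form a stable subcomplex that has helicase activity on its own in vitro. MCM7 (chromosome 7, 100092728 to 100101397, minus strand) is the shortest of the 6 genes and had the densest peaks, 0.346 per kb. Its first peak, from 100101231 to 100101337, covered bases 61 to 167 of the gene with a fold enrichment of 11.1, and its −log10 q was 31.3, both the highest among the MCM peaks of the wild-type list. The fold enrichment is the authors' own ratio over a control that is not named in the sources used here, and the −log10 q is their value too. This peak also falls within the annotated span of AP4M1, a subunit gene of an adaptor complex of vesicle transport. AP4M1 runs on the plus strand and the peak is on the minus strand, that of MCM7. The second MCM7 peak, from 100099024 to 100099157, had its summit 2303 bp after the start and a fold enrichment of 10.4, and the third, from 100095796 to 100096098, had its summit at 5386 bp and a fold enrichment of 5.76. The third was the widest of the wild-type MCM peaks at 303 bp and lay 1722 bp upstream of MIR106B, the nearest of the 3 microRNA genes inside MCM7 (MIR106B, MIR93 and MIR25). No peak overlapped any of these 3 hairpins.

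MCM4 (chromosome 8, 47960941 to 47978160), whose N-terminal tail is a target of the CDC7-DBF4 kinase, had a wild-type peak from 47961537 to 47961682 with a fold enrichment of 9.76 (−log10 q 14.5). A second peak from 47970638 to 47970824, with its summit at 57.0% of the span, had a fold enrichment of 6.25 (−log10 q 12.4). The gene on the other side of the MCM4 start is PRKDC, the catalytic subunit gene of the DNA-dependent protein kinase, which is transcribed away from it. PRKDC held 3 wild-type peaks on the minus strand, the one it is transcribed from, and the summit of 1 of them lay 81 bp after its start, with a fold enrichment of 4.47. The summit of the first MCM4 peak lay 678 bp after the MCM4 start, so the region between the starts of both genes had a wild-type peak on either side.

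MCM6 (chromosome 2, 135839626 to 135876443, minus strand), whose C-terminal part binds the loading factor CDT1, had a single wild-type peak from 135876229 to 135876401. It covered bases 43 to 215 of the gene, nearer to the start than any other MCM peak by its first base, with a fold enrichment of 9.70 (−log10 q 13.0). The nearest other wild-type peak on this chromosome was 1760 kb away. MCM2 (chromosome 3, 127598411 to 127622436, plus strand), which also binds histones H3 and H4 through its N-terminal tail, had a single wild-type peak from 127599388 to 127599516. Its fold enrichment was 5.14, its −log10 q 6.01, and its summit lay 1006 bp after the start. Both genes thus had their only peak in the first 5th of the span, at 0.326% and 4.19% of its length, and none towards the end.

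MCM3 (chromosome 6, 52264015 to 52284742, minus strand), the subunit through which the loading complex ORC-CDC6 first contacts the ring in yeast, had the most peaks and the only ones near a gene end. Its first peak, from 52284559 to 52284676, covered bases 67 to 184 of the gene and had the lowest fold enrichment of the 11 wild-type peaks, 3.67. A peak in the middle, from 52276267 to 52276422, had a fold enrichment of 7.10. A pair near the end, from 52264618 to 52264742 and from 52264311 to 52264546, had fold enrichments of 8.35 and 4.77 and was separated by 71 bp. The last of these had the lowest −log10 q of the 11, 3.70. In MCM3 the highest fold enrichment was thus at 96.8% of the span and the lowest at its start, whereas in MCM7 and MCM4 the peak nearest the start had the highest.

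MCM5 (chromosome 22, 35400140 to 35455031), which with MCM2 forms the gate through which DNA enters the ring, was the MCM gene without a wild-type peak. It held the only peak of a mutant, a MYC-7A peak from 35437942 to 35438187 on the plus strand. This peak had a fold enrichment of 11.9, rank 31 of the 88 in its list, and a −log10 q of 17.4, rank 52. Its width of 246 bp compares with a median of 202 bp in the 7A list. The summit lay at 69.1% of a span that the table draws from 1 curated and 2 model transcripts. No exons were given here, so it is not known which of these transcripts covers the peak. The nearest other peaks of each allele were in TOM1, a gene of endosomal sorting, at 93.2 kb for 3A, 92.2 kb for 7A and 93.5 kb for wild type.

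Each of the 5 genes with wild-type peaks had 1 of them in the first 5th of its span. The share of all protein-coding genes with a wild-type peak that had a summit in this 5th was not determined. It therefore cannot be said whether this is particular to the MCM genes. Of the 11 wild-type summits in MCM genes, 5 (45.5%, 95% exact Clopper-Pearson interval 16.7 to 76.6) lay there. The background was 50.3% of 2097 pairs of a wild-type peak and a protein-coding gene it met. It was 51.3% of the pairs with genes as long as the MCM genes. A peak that met several genes, on either strand, counted once for each, whereas each MCM peak counted once. The peak shares over all protein-coding genes given next use the same pairs. In the last 5th lay 2 of 11 (18.2%, interval 2.28 to 51.8), both in MCM3, beside 21.3%. Summits within 500 bp of the start were 3 of 11 (27.3%, interval 6.02 to 61.0), beside 41.5%. By gene, 3 of the 5 MCM genes with a wild-type peak had such a summit, beside 61.5% of the 1359 protein-coding genes with a wild-type peak. The intervals cover counting error only and treat the 11 peaks as independent, although 4 of them lay in MCM3 and 3 in MCM7. They include the shares over all protein-coding genes, and whether position differs was not tested. The 3 near summits lay at similar distances, 96 bp in MCM3, 99 bp in MCM7 and 120 bp in MCM6. Over all 870 pairs of a wild-type peak and a protein-coding gene with the summit within 500 bp of its start, the median distance was 137.5 bp. The quartiles were 102 and 221.75 bp. The summits of MCM4 and MCM2, at 678 and 1006 bp, lay well beyond. MCM7 has 3 starts in the RefSeq promoter table, and its first peak lies upstream of the other two, so of these starts only the outermost lies before it.

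**Figure D2:**
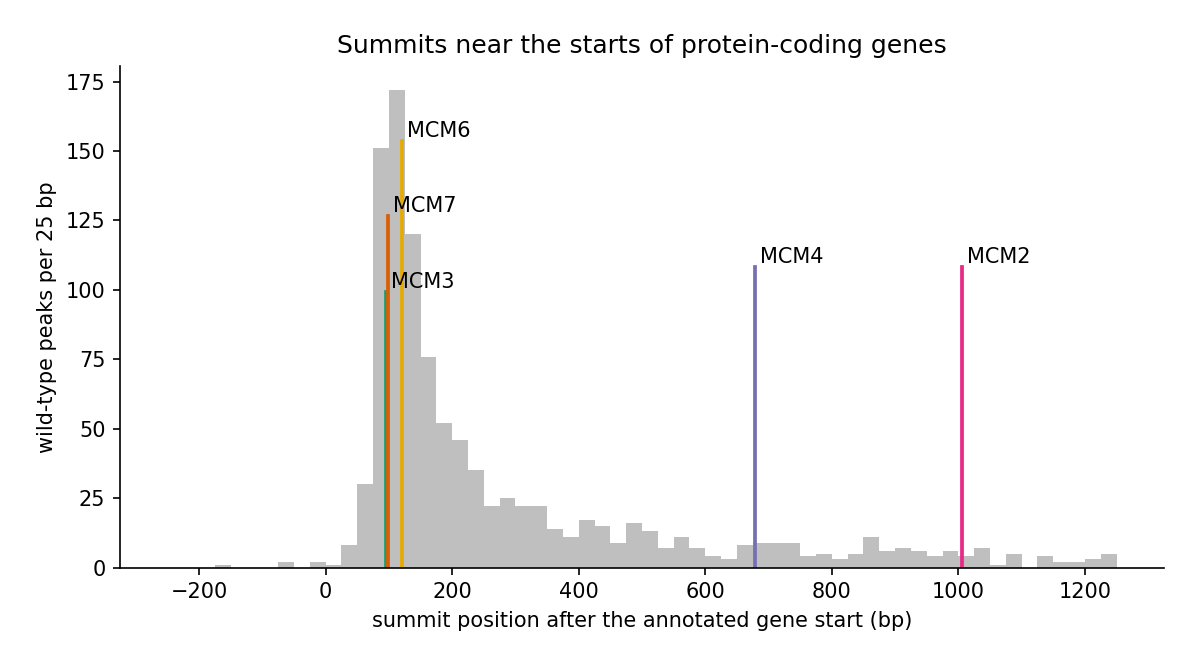
Distance of wild-type MYC summits from the annotated start of protein-coding genes, as peaks per 25 bp, with a peak that met several genes counted for each. Coloured lines mark the first summit of each MCM gene with a wild-type peak (line height has no meaning). The lines of MCM3, MCM7 and MCM6 at 96, 99 and 120 bp stand in the main mode of the grey distribution, and those of MCM4 and MCM2 at 678 and 1006 bp in its tail.

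The DNA just upstream of these starts is shown because the first peaks of MCM3, MCM6 and MCM7 begin soon after it (that of MCM2 begins at base 978) and because MYC as a DNA-binding factor is known for the E-box CACGTG. The 250 bases before the start are given for MCM2, MCM3, MCM6 and MCM7, 5′ to 3′ on the strand of the gene, from RefSeq (GRCh38.p14), ending at the base before the gene. Capitals mark the E-box CACGTG, which reads the same on both strands, and E2F-type words (TTTCGCGC, TTTGGCGC, TTTCCCGC or TTTGCCGC, on either strand).
MCM2, chr3:127598161-127598410, plus strand: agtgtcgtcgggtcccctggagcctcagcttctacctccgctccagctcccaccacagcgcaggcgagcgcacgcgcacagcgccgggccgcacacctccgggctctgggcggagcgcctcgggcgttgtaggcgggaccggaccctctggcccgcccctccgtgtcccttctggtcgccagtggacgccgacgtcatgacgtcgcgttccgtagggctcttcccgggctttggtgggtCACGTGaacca
MCM3, chr6:52284743-52284992, minus strand: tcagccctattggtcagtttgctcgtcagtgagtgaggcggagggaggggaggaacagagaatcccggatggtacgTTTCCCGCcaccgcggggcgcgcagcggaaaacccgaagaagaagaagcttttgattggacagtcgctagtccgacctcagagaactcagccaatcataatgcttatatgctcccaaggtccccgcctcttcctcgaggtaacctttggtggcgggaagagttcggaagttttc
MCM6, chr2:135876444-135876693, minus strand: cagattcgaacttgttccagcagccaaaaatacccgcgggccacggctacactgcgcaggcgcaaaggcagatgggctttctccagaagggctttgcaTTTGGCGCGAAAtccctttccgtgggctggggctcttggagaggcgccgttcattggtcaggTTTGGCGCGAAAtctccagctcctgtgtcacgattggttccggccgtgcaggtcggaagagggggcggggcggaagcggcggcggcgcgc
MCM7, chr7:100101398-100101647, minus strand: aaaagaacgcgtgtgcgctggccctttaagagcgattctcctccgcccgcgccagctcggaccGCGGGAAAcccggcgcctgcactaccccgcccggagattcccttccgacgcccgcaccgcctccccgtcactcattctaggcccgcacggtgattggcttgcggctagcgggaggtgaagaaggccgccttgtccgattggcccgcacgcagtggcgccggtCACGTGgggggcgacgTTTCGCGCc
The E-box occurred once in MCM2, from 11 to 6 bases before the start, and once in MCM7, from 25 to 20 bases before it. In 22078 upstream windows of protein-coding genes of the same length, 7.35% held it. E2F-type words were matched 4 times in MCM6, as 2 sites that each match on both strands with overlap, at 2 places in MCM7 and at 1 in MCM3, and 3.46% of the windows held 1 or more. The windows of the 3 genes with a summit at 96 to 120 bp all held an E2F-type word, and that of MCM2, with its summit at 1006 bp, did not. MCM4, with its first summit at 678 bp, had no window here, so the contrast rests on MCM2 alone. A link between these words and the summit positions was not tested. MCM7 was the only one of the 4 with both kinds of match. A match is a run of letters and shows no binding.

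Within the wild-type list the MCM peaks were of middling to low strength. Their fold enrichments ran over 3.67 to 11.1 with a median of 7.10, beside a median of 8.11 over all 2149 peaks, and 5 of the 11 exceeded that median. These 5 were 2 peaks of MCM7 and 1 each of MCM3, MCM4 and MCM6. Their median −log10 q was 12.4 beside 17.8 over the list, and the only 2 above that were the first and second peaks of MCM7. The best ranks of an MCM peak were 586 by fold enrichment and 521 by −log10 q, both for the first peak of MCM7. By their highest peak the genes ordered as MCM7 (11.1), MCM4 (9.76), MCM6 (9.70), MCM3 (8.35) and MCM2 (5.14), and without replicates it cannot be said whether neighbours in this order differ. Widths ran over 107 to 303 bp with a median of 146 bp, beside 165 bp over the list.

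**Figure D3:**
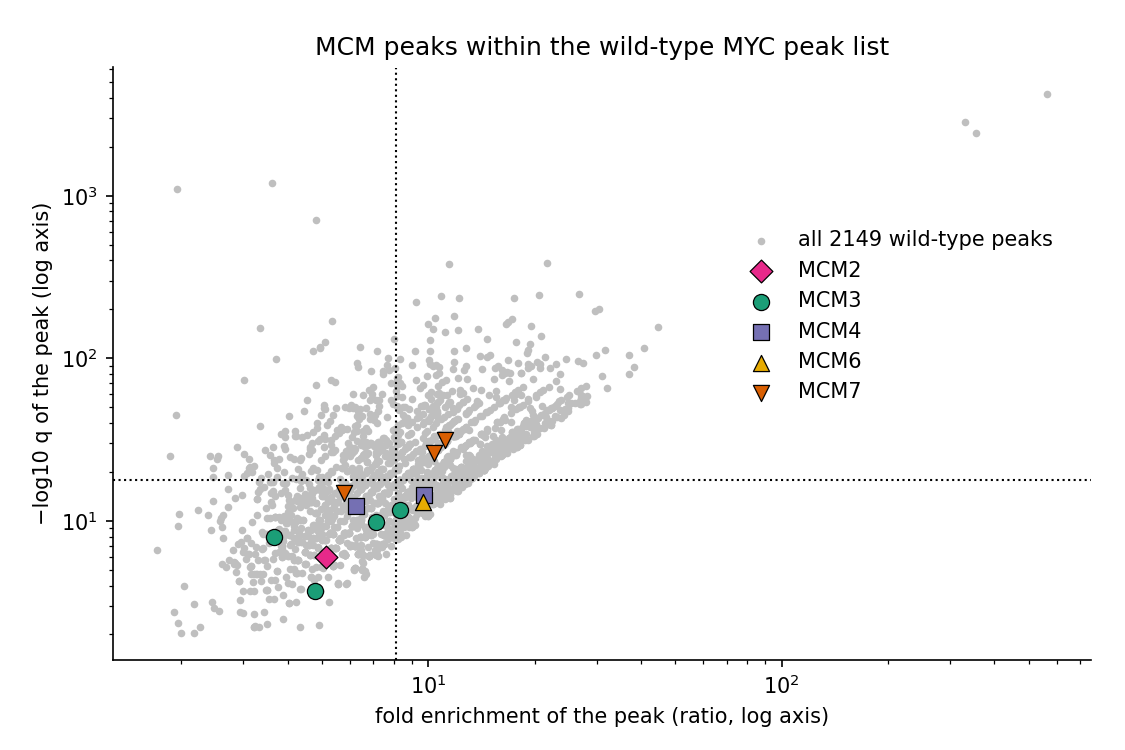
Fold enrichment (ratio, log axis) against −log10 q (log axis) of each wild-type MYC peak, in colour for the 11 in MCM genes and in grey for all 2149, with dotted lines at the medians of the list. The MCM peaks lie between 3.67 and 11.1 on the horizontal axis, and 2 MCM7 peaks are the only ones above the horizontal dotted line.

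None of the mutant peaks met a wild-type MCM peak. With 1 shared bp required, 0 of the 11 were met by a 3A or 7A peak, beside 3.96% of all 2149 wild-type peaks, so a count of 0 in 11 is near the background. The count was also 0 among the MCM peaks when a mutant peak within 500 bp sufficed. The nearest mutant peaks to MCM7, of 3A and of 7A alike, lay in TRRAP at SCARNA28, 1210 kb from the third MCM7 peak. The mutant lists are far shorter than the wild-type list, and the length of the list bears directly on these counts. When the wild-type list was reduced to the 103 peaks of highest −log10 q, the length of the 3A list, 0 MCM genes held a peak, beside 0.364% of all protein-coding genes. At the length of the 7A list, 88 peaks, the MCM count was also 0, beside 0.324%. Both MCM counts follow from the ranks given above, as the best rank of an MCM peak by −log10 q was 521. Whether 3A or 7A contacts the MCM messages less than wild-type MYC does cannot be told apart from the shorter lists.

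Other genes of DNA replication held wild-type peaks at a share near that of all protein-coding genes. Of 12 origin licensing genes (ORC1 to ORC6, CDC6, CDT1, GMNN, MCMBP and the MCM relatives MCM8 and MCM9), 0 had a 3A peak, 0 had a 7A peak and 1 had a wild-type peak. This was MCMBP, a factor that binds and assembles MCM subunits, with a fold enrichment of 2.93 and a summit 841 bp after the annotated gene start, which is 103 bp after the nearer of its 2 starts in the promoter table. Of 17 helicase activation genes, among them CDC45, GINS1 to GINS4 and MCM10, 0 had a 3A peak, 0 had a 7A peak and 1 had a wild-type peak. This was TICRR, which helps to load CDC45, with a fold enrichment of 6.51. Its summit lay 154 bp after the annotated gene start, which is 36 bp after the nearer of its 2 starts in the promoter table. Of 27 replication fork genes, 0 had a 3A peak, 0 had a 7A peak and 3 had a wild-type peak. PCNA, the sliding clamp, had a fold enrichment of 11.4 and a summit 6874 bp after the annotated gene start (58.9% of the span), which is 210 bp after the nearer of its 2 starts in the promoter table. The peak lay on the strand of PCNA and not of the overlapping PCNA-AS1. POLE4, a small subunit of DNA polymerase epsilon, had 7.07 with the summit at 152 bp, and this peak also met the annotated span of LOC105374809. POLD2, a subunit of DNA polymerase delta, had 5.78 with the summit at 2299 bp, which is 1522 bp after its only start in the promoter table. Thus 5 of the 6 MCM genes held a wild-type peak, against 5 of these 56 genes together (8.93%), each with a single one, and 6.78% of all protein-coding genes. The difference between the lists was not tested, since the MCM genes were chosen with their peaks known. Over all protein-coding genes 0.359% had a 3A peak and 0.269% a 7A peak. At these shares, 0 of the 56 other replication genes with a mutant peak is near the background. The highest fold enrichment of an MCM peak, 11.1 at the start of MCM7, was close to that of PCNA, 11.4.

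**Figure D4:**
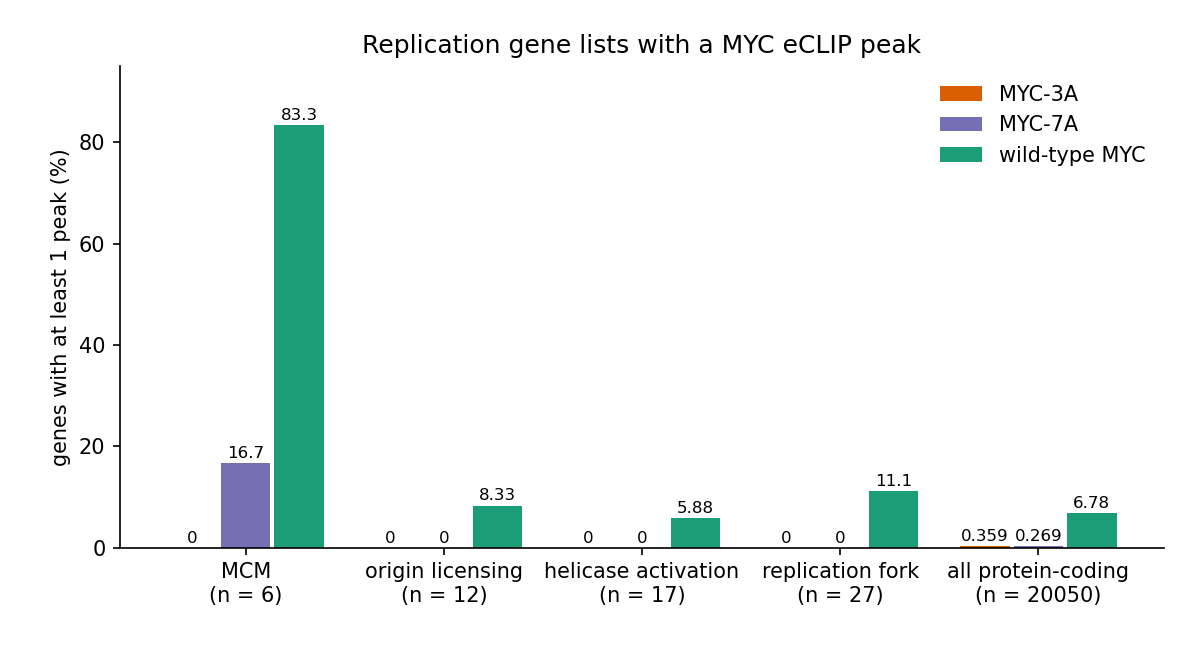
Percentage of genes with at least 1 peak (vertical axis) in the MCM genes, in 3 other lists of replication genes and in all protein-coding genes, with bars for MYC-3A, MYC-7A and wild-type MYC from left to right. The wild-type bar is 83.3% for the MCM genes, between 5.88% and 11.1% for the other replication lists and 6.78% for all protein-coding genes.

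The genes flanking the MCM genes differed in their peaks. Of the nearest protein-coding gene on either side of each MCM gene, PRKDC held 3 wild-type peaks, PODXL2, next to MCM2, held 2, and COPS6, a subunit gene of the COP9 signalosome next to MCM7, held 1 with a fold enrichment of 16.5 and a summit 82 bp after its start. AP4M1 was met only by the MCM7 peak described above, and the others, including both neighbours of MCM3, MCM5 and MCM6, held 0. Of the 12 flanking genes 0 held a 3A peak, 0 a 7A peak and 4 a wild-type peak, AP4M1 included, beside 0.359%, 0.269% and 6.78% of all protein-coding genes. At the mutant shares, 0 of 12 is near the background.

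MCM3, the MCM gene with the most peaks, was compared with 1354 other protein-coding genes that had a wild-type peak. The measure was the Euclidean distance over 5 values, which were the numbers of 3A, 7A and wild-type peaks on the log2 scale and the rank percentile and relative position of the peak with the highest fold enrichment. LARP1, an RNA-binding protein gene of translational control, was closest (distance 0.040), with 0 peaks of 3A, 0 of 7A and 4 of wild type and its highest peak, of 8.08, at 99.4% of the span. PUS1, a pseudouridine synthase gene, followed (0.296), then LOC112694756 (0.297), and after it YWHAG, a 14-3-3 protein gene (0.333), and E2F4, a gene of the E2F family (0.338). By the construction of the measure these genes share a count of 3 to 5 wild-type peaks and a highest peak beyond 70% of the span, and the measure uses 3 lists with no replicates. All 5 peaks of LOC112694756 also lie in the overlapping gene ALDOA, an aldolase gene of glycolysis, where the highest is at 53.1% of the span, so the gene of origin of these peaks is uncertain.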

How the data were processed

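Per the labels' protocols, RNA was crosslinked with ultraviolet light and trimmed with RNase I in the lysate, DNA was digested, and tagged MYC was taken down with a FLAG antibody. Per the submitters' processing notes, cutadapt, BWA and MACS2 were used with hg38. The tools' versions and settings, the control and any pooling of replicates were not given in the sources used here. For each peak the deposited narrowPeak lists hold a fold enrichment (a ratio) and a −log10 q made by the authors, and the position of the summit. The lowest deposited −log10 q was 2.34 for 3A, 2.90 for 7A and 2.04 for wild type. The number of peaks in a list depends on depth and on the control, so ranks and fold enrichments were used only within a list.

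Coordinates were made 1-based. Gene spans came from the RefSeq table of GRCh38.p14, and strands and starts from its promoter table. No exons were used here. For MCM4 and MCM5, which were not matched in the promoter table, the strand was that of the peak. A peak was assigned to each gene it met by 1 bp. The assignment was tested on simulated data, where all 200 planted summits were recovered at their distance. The members, the 3 other gene lists and all rules were chosen with earlier results of these data known. Named genes were all members, MYC, every gene of those lists with a peak, genes overlapping an MCM peak, and the 5 genes nearest to MCM3 in pattern. The flanking genes, ALDOA, the promoter words and the length-matched background were added after their values were seen. No significance test was made. Alternatives were the overlap rule, the span, the peak threshold, the list length, the strand and the rank measure. The software was SciPy 1.17.1, NumPy 2.4.6 and pandas 2.3.3 under Python 3.11.15.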

Additional observations from a re-analysis of the deposited data

How the results depend on the processing

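Of 87 alternative values of 12 results, 59 were counted as close to the value reported, for counts when within 1.5 times. These 59 include values that their setting could not change. The median rank percentile of the wild-type MCM peaks by fold enrichment was counted as close in every setting. It was 39.7 in the main setting and 63.1 when only peaks from the list median upward were kept, a rise that this setting forces. The 0 MCM genes with a 3A peak, the 1 with a 7A peak and the 0 wild-type MCM peaks met by a mutant peak held under every overlap, span and threshold setting tried, and the 5 MCM genes with a wild-type peak under the overlap, span, strand and −log10 q settings. The strand setting could not remove MCM4, whose strand was taken from its peaks. The 0 counts could rise only where spans were widened by 500 bp or a mutant peak within 500 bp sufficed. All other overlap and threshold settings only remove peaks or overlaps, so under them a 0 was fixed in advance. When only the stronger part of each list by fold enrichment was kept, from its median upward, 5 MCM peaks remained with 3 summits in the first 5th, MCM4, MCM6, MCM7 and MCM3 still held a peak, 790 protein-coding genes did, and the licensing, activation and fork lists had 0, 0 and 1. With a −log10 q of at least 5, the licensing and activation lists had 0 each. With spans widened by 500 bp they had 2 each, by peaks beside MCM8 and TIPIN on the strand opposite to these genes. At the 3A length by −log10 q, the MCM genes with a peak, the MCM peaks and all 3 replication lists were at 0 and protein-coding genes at 73. The same 0 values were found at the 7A length, with 65 protein-coding genes, and at the 3A length by fold enrichment, with 88. These last 2 settings, and the use of any listed start, were chosen after seeing the data. For the MCM genes the 0 values at reduced list length follow from their best ranks, 521 by −log10 q and 586 by fold enrichment. Positions and ranks have no value where 0 MCM peaks are left. No paired analysis was possible because the lists hold 1 value per peak and none per library, which also leaves no replicate to omit. Depth is unknown and limits what the absence of mutant peaks from a gene can show.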
